A study of Mus musculus with 28 samples.

Results

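Night was compared with day in the lateral ventricle choroid plexus of aged wild-type mice, the vascular tissue with an epithelial sheet that secretes cerebrospinal fluid (CSF). Members were the 8 libraries of the aged cohort whose labels give the genotype J20- and a sampling time of ZT18 (4 night mice) or ZT6 (4 day mice), out of 28 libraries in all. Zeitgeber time (ZT) counts hours from lights on, so that ZT18 falls in the dark phase, when mice are active, and ZT6 in the light phase, when they rest. Each library held poly(A) RNA of 1 male mouse, numbered in its title, that had been perfused with saline under isoflurane before dissection. The aged wild-type night and day mice were 12 to 14 months old. They were set beside J20+ mice of 12 to 14 months, likewise night and day (4 libraries each), which carry a mutant human amyloid precursor protein transgene used to model Alzheimer's disease, and beside young wild-type mice of 3 to 4 months, night and undisturbed day (4 libraries each). The wild-type mice of the aged cohort are the J20- animals and carry no such transgene per their labels. All 16 aged libraries were of batch 2 and the young ones of batch 1, so that age and batch cannot be told apart. Aged wild-type libraries held 14.63M to 18.44M counts at night and 15.1M to 20.49M by day, and the deepest, of a J20+ day mouse, held 43.89M.

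The circadian clock of each cell is a loop of transcription factors. BMAL1 (gene Arntl) with CLOCK or NPAS2 binds E-box motifs and switches on the Per, Cry, Nr1d and Dbp genes. PER and CRY proteins then block that activator, while REV-ERB proteins (Nr1d1, Nr1d2) repress Arntl, Cry1 and Nfil3 through AGGTCA motifs, and DBP, TEF, HLF and the repressor NFIL3 compete for D-box motifs. In mice, glucocorticoid from the adrenal gland peaks near the onset of darkness, and its receptor switches on genes such as Tsc22d3, Per1 and Fkbp5. The choroid plexus lies against hippocampus, thalamus and striatum, and a dissected piece can carry some of that brain tissue.

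Promoter windows are shown for 5 of the clock genes that separated night from day libraries and hold a motif of this loop. A window of Arntl and a window of Clock also hold AGGTCA and are not printed. Those of Nr1d1, Dbp and Tsc22d3, on which the values that follow turn as well, hold none of the motifs. Each window runs from 250 bases before to 50 after a RefSeq start site of the gene (GRCm38.p6, 300 bases, 5′ to 3′ on the gene's strand). For Per1 and Nfil3 the printed window lies inside the gene's span and not at its outer end. Capitals mark the E-box CACGTG, the D-box TTATGCAA or TTATGTAA and the REV-ERB/ROR motif AGGTCA, found on either strand, so that AGGTCA also appears as TGACCT.
Per1 chr11:69098699-69098998, plus strand: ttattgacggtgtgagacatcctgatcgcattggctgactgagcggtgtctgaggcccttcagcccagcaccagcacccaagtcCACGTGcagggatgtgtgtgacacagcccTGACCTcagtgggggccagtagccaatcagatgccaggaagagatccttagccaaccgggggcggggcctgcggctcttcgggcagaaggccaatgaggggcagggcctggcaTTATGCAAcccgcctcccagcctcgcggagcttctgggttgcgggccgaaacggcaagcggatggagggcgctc
Cry1 chr10:85185005-85185304, minus strand: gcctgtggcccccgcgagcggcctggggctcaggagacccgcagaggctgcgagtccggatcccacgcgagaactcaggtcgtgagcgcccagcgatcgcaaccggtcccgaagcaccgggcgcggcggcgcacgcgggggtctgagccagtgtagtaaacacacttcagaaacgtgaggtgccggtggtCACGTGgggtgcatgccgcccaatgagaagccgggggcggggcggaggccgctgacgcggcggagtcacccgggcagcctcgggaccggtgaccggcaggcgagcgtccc
Bhlhe41 chr6:145865371-145865670, minus strand: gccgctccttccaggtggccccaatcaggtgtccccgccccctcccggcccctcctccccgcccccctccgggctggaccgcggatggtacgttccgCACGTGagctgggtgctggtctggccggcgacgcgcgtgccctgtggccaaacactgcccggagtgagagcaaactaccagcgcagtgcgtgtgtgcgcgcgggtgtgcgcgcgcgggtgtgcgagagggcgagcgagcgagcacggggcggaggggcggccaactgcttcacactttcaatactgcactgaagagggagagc
Nfil3 chr13:52980990-52981289, minus strand: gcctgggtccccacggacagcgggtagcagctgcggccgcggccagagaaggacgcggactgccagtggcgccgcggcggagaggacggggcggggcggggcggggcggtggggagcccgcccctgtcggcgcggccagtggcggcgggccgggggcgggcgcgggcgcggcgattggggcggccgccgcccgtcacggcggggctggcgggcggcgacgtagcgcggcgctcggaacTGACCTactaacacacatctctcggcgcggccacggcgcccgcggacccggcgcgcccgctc
Nr1d2 chr14:18239057-18239356, minus strand: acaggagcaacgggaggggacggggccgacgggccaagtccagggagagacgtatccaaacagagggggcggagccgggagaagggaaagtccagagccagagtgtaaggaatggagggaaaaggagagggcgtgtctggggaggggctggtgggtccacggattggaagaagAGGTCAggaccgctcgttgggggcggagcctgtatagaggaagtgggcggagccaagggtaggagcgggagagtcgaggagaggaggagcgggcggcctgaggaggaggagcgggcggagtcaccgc
Of 32851 such windows, 7.15% hold the E-box, 1.66% either D-box form and 16.3% AGGTCA. The palindromic glucocorticoid receptor site was searched as well and is in 0.475% of windows and in none of the 5. Among 11 clock genes named here that separated night from day libraries, 10 had a window in the table. Of these, 3 held the E-box, 1 a D-box and 5 AGGTCA, against 3, 1 and 1 of the 12 with a window among the 15 clock genes that did not separate them. Several genes have more than 1 window, and a gene was counted where any of them holds the motif. The printed window of Per1 holds each of the 3 motifs, and its second window holds none. A motif match is a description of the letters and not a binding site.

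The level of brain tissue markers spread widely over the libraries and was higher in most night libraries. A brain marker score, averaged over the markers of neurons, oligodendrocytes and astrocytes, was 6.35, 6.01, 3.66 and 5.42 log2 CPM in night libraries 1 to 4, against 3.19, 2.08, 4.45 and 0.97 log2 CPM in day libraries 1 to 4. CPM is a gene's count scaled to library size, corrected by TMM (a trimmed mean of log ratios between libraries), and library numbers only name mice. Night library 3 lay below day library 3, and the other 3 night libraries lay above every day library, so the groups overlap through that pair. Summed over 20 neuron markers the level was 465 to 1761 CPM in night and 200 to 507 CPM in day libraries. The sums were 764 to 6154 CPM in night and 179 to 2874 CPM in day libraries over 15 oligodendrocyte markers, and 490 to 1869 CPM in night and 242 to 597 CPM in day libraries over 14 astrocyte markers. No marker of these 3 lists was at 0 in every library of a group.

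Single markers showed how uneven the tissue was. Camk2a, a kinase of forebrain excitatory neurons, had 205, 249, 45.0 and 266 CPM in night libraries, against 17.1, 10.1, 49.1 and 0.504 CPM in day libraries. Snap25, a synaptic vesicle fusion protein, had 244, 282, 22.3 and 191 CPM in night libraries, against 27.2, 11, 42.1 and 2.2 CPM in day libraries. Night library 3 was within the day range for both, and day library 4 was the lowest library for both. Slc1a2, the main astrocyte glutamate transporter, was likewise within the day range in night library 3, with 578, 524, 108 and 422 CPM in night libraries and 61.6, 20.5, 192 and 6.61 CPM in day libraries.

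Markers of neighbouring regions were high in different night libraries. Penk, an opioid precursor of striatal neurons, had 69.5, 16.9, 8.92 and 95.1 CPM in night libraries, against 7.44, 5.68, 14.6 and 0.672 CPM in day libraries, so night libraries 1 and 4 stood high. Drd1, a dopamine receptor of the same neurons, had 13.9, 3.42, 1.41 and 17.3 CPM in night libraries, against 1.21, 0.735, 4.32 and 0.168 CPM in day libraries. Slc17a6, the glutamate transporter of thalamic relay and habenular neurons, had 18, 42.6, 2.14 and 1.91 CPM in night libraries, against 2.42, 0.267, 0.591 and 0 CPM in day libraries. It stood high in night libraries 1 and 2, and in night library 4, rich in Penk, it was below day library 1. Some genes of the region lists were high in every library, such as Ppp1r1b at 734 to 968 CPM and Zic1 at 67.6 to 93.2 CPM, and do not mark brain tissue here. Medians over the lists were 2.58 log2 for 14 striatum and 1.49 log2 for 13 thalamus markers (night minus day), against 0.03 log2 over all 16065 genes tested.

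The mean level of choroid epithelium markers was lower at night. It was 9.64, 9.31, 9.98 and 9.41 log2 CPM in night libraries and 10.29, 10.20, 10.09 and 10.48 log2 CPM in day libraries, without overlap. Summed, the 20 markers made up 27815 to 40819 CPM in night and 47378 to 58232 CPM in day libraries. Of the 20, 11 had every night library below every day library (15.2% of all genes did) and 9 overlapped, and 0 passed the edgeR test (11 at an unadjusted p under 0.05, 8 called by DESeq2, 15 by limma-voom). As shares these last counts were 55%, 40% and 75% of the markers, against 31.1%, 8.65% and 51.7% of all genes. Ttr, transthyretin, the epithelium's thyroid hormone carrier, was among those that overlapped, with 10080, 10057, 10725 and 9130 CPM in night and 10319, 11166, 10485 and 8930 CPM in day libraries. Its difference was -0.03 ± 0.20 log2. Those of Ecrg4, 0.15 ± 0.19 log2, and Wfdc2, 0.02 ± 0.17 log2, were the 2 positive ones, with the groups overlapping. Enpp2, autotaxin, had 15427, 8670, 13753 and 7853 CPM in night libraries, against 23327, 20968, 19057 and 23571 CPM in day libraries. Over the 20 epithelial markers the median difference was -0.73 log2. With the brain marker score as a covariate in the edgeR fit it was -0.13 log2, and 0 had an unadjusted p under 0.05. In J20+ mice the epithelial marker mean was 10.08 ± 0.56 log2 CPM in night and 10.15 ± 0.36 log2 CPM in day libraries (SD, n = 4 each). In bulk tissue, fewer cells of a type and less RNA per cell cannot be told apart. Endothelial, fibroblast and mural markers together averaged 4.16 ± 0.12 log2 CPM in night and 4.24 ± 0.29 log2 CPM in day libraries (SD, n = 4 each).

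**Figure D1:**
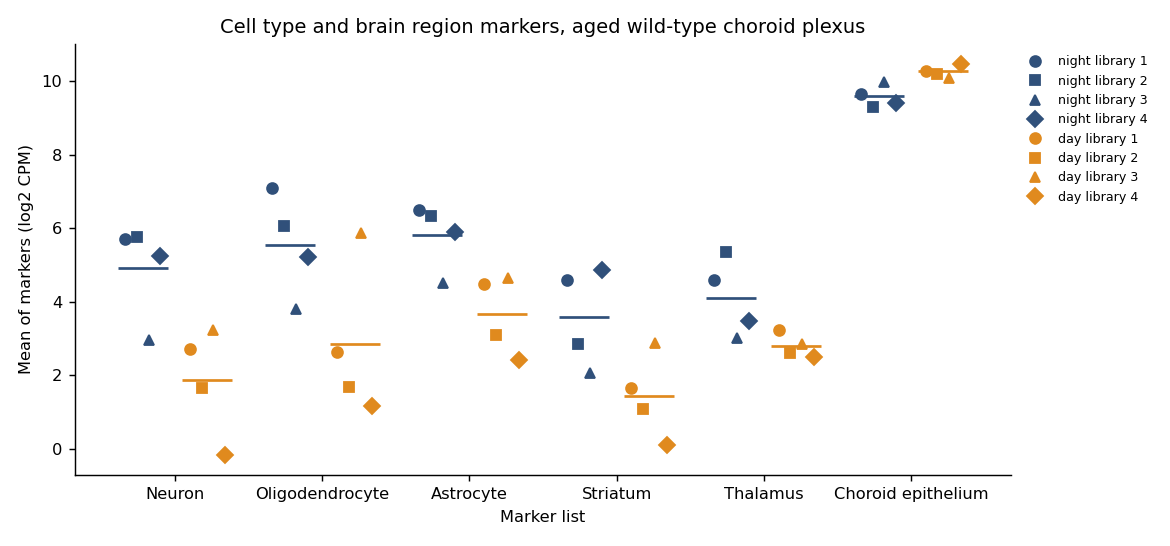
Mean log2 CPM of 6 marker lists in the 4 night (blue) and 4 day (orange) libraries, with a line at each group mean. Brain and region markers spread widely, night library 3 (triangle) lies at 2.96 and day library 3 (triangle) at 3.24 for neuron markers, and choroid epithelium markers are at 9.31 to 9.98 in night and 10.09 to 10.48 in day libraries.

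Against this background few genes were called. Of 16065 genes tested, 2 rose at night (0.0124%) and 0 fell at an adjusted p under 0.05 (edgeR quasi-likelihood test over the 16 aged libraries, Benjamini-Hochberg), while 5002 (31.1%) had an unadjusted p under 0.05. Tsc22d3 (Entrez 14605, chromosome X, 140539528 to 140600522), which encodes the glucocorticoid-induced leucine zipper GILZ, had 63.0, 54.3, 67.2 and 77.3 CPM in night libraries, against 29.4, 25, 25.8 and 23.7 CPM in day libraries. Every night library lay above every day library, night library 3 included. It rose 2.52-fold, 1.33 ± 0.13 log2 (SE, adjusted p = 0.000314), with group means of 65.5 ± 9.54 CPM at night and 26 ± 2.42 CPM by day (SD, n = 4 each). With the brain marker score as a covariate the difference was 1.30 ± 0.16 log2 (adjusted p = 0.00512).

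The spread that the test used came from all 16 aged libraries, and the count of calls differed between fits and tools. DESeq2 called 657 genes higher and 733 lower, and limma-voom with quality weights 4463 higher and 3849 lower. Fitted on the 8 aged wild-type libraries alone, 2101 genes rose and 1932 fell of 15385. Without J20+ day library 1 and J20+ night library 2, whose brain marker scores of 5.14 and 4.38 log2 CPM were the highest of their groups, 3692 rose and 3463 fell of 16115. Without night library 3, 90 rose and 10 fell of 16372. When the brain marker score was a covariate in the fit on 8 libraries, 1 gene rose and 0 fell. In all, 1741 genes (10.8%) had the 4 night libraries above the 4 day libraries, and 2449 (15.2%) had them below.

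With the brain marker score as a covariate in the 16-library fit, 4 genes rose and 1 fell (0.0311%), and the number at an unadjusted p under 0.05 dropped to 960 (5.98%). Beside Tsc22d3, Cry1 and Gm19522 rose and Nr1d1 fell. Gm19522 (Entrez 100503040, chromosome 16, 42884370 to 42912070) is a predicted gene whose span lies inside that of Zbtb20, and the strand setting of the counting is not given in the sources used here. It had 18.5, 14.9, 22 and 16.5 CPM in night libraries, against 8.76, 10.4, 7.33 and 13.6 CPM in day libraries, without overlap. Its difference was 1.62 ± 0.21 log2 with the covariate (adjusted p = 0.00588) and 0.84 ± 0.30 log2 without (adjusted p = 0.144). The difference of Zbtb20 itself was -1.97 log2.

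Night library 3 and day libraries 1 and 3 have brain marker scores that are close (3.66 at night, 3.19 and 4.45 log2 CPM by day). A contrast of these 3 libraries, chosen after seeing the data, called 0 of 17074 genes in edgeR, with 528 (3.09%) at an unadjusted p under 0.05. In it, neuron markers had a median of -0.19 log2, Tsc22d3 a difference of 1.21 log2, and choroid epithelium markers a median of -0.28 log2. Brain tissue was not even in it, with medians of -1.36 log2 for oligodendrocyte, -0.75 log2 for oligodendrocyte precursor and -0.74 log2 for hippocampus markers. The lone night library is assumed to vary like the other groups.

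**Figure D2:**
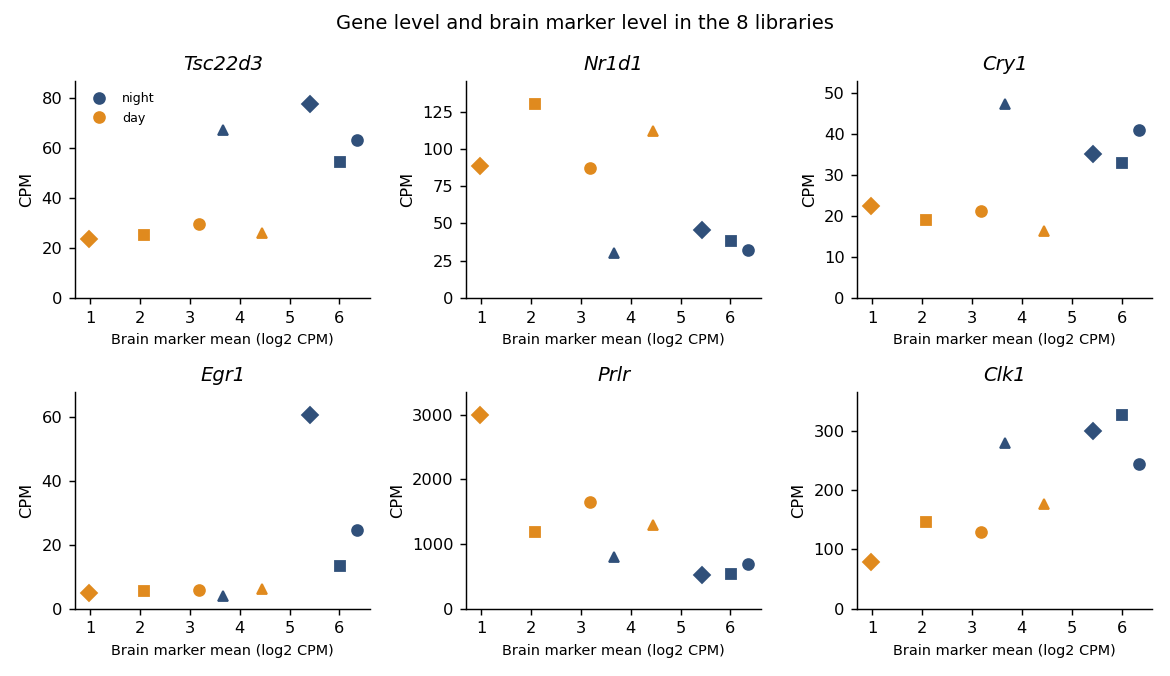
CPM of 6 genes (vertical axes, from 0) against the brain marker score of the same library (horizontal axes, log2 CPM) in 4 night (blue) and 4 day (orange) libraries. For Tsc22d3, Nr1d1 and Cry1, night library 3 at a score of 3.66 lies with the other night libraries, and for Egr1 it lies among the day libraries at 3.96 CPM.

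Clock genes differed in both directions. Of 27 tested, 6 had all night libraries above all day libraries (22.2%, against 10.8% of all genes) and 6 had them below (22.2%, against 15.2%), 15 overlapped, and none passed the edgeR test without the covariate, though 14 had an unadjusted p under 0.05, DESeq2 called 10 and limma-voom 15. The shares to set beside these counts, and beside those of each list that follows, are 31.1% of all genes at an unadjusted p under 0.05, 8.65% called by DESeq2 and 51.7% by limma-voom. The limma-voom share of the clock list, 55.6%, is near that of all genes. Their median was -0.20 log2, against 0.03 log2 over all genes.

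In the activator arm, Arntl, the BMAL1 gene, had 19.9, 22.8, 16.6 and 19.1 CPM in night libraries, against 10.4, 6.42, 9.29 and 7.84 CPM in day libraries, without overlap. Its difference was 1.20 ± 0.37 log2 (adjusted p = 0.144). Clock, its partner, had 72.0, 53.1, 56.7 and 52.4 CPM in night libraries, against 111, 74.4, 80.4 and 228 CPM in day libraries, so the groups nearly met and day library 4 set much of the mean. The difference of -1.08 ± 0.50 log2 (adjusted p = 0.158) was 0.00 log2 with the brain marker covariate. Npas2, the alternative partner, overlapped at 18.5 to 24.3 CPM in night and 17.2 to 22.2 CPM in day libraries.

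The REV-ERB genes were lower at night in every library. Nr1d1 (chromosome 11, 98767932 to 98775377) had 32.4, 38.1, 30 and 45.9 CPM in night libraries, against 87.4, 130, 112 and 88.8 CPM in day libraries. The highest night library was well below the lowest day library. Its level was 2.86-fold lower at night, -1.51 ± 0.23 log2 (adjusted p = 0.0583), and it passed the test with the brain marker covariate at -1.82 ± 0.25 log2 (adjusted p = 0.0104). The span of Nr1d1 overlaps that of Thra by 1075 bases, and Thra had a difference of 0.07 log2. Nr1d2 had 93.9, 82.4, 89.4 and 81.2 CPM in night libraries, against 186, 207, 165 and 269 CPM in day libraries, a difference of -1.25 ± 0.31 log2 (adjusted p = 0.144). Rora, an activator at the same motif, was at 1.25 to 4.05 CPM in night and 3.08 to 5.21 CPM in 3 day libraries, with 25.4 CPM in day library 4. Rorb, also a thalamus marker, had 9.13, 15, 0.991 and 4.68 CPM in night and 1.44, 0.735, 1.60 and 0.448 CPM in day libraries, with night library 2 highest, as for Slc17a6.

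Among the repressors, Cry1 (chromosome 10, 85131700 to 85185054) had 40.9, 32.9, 47.2 and 35.2 CPM in night libraries, against 21.2, 18.9, 16.4 and 22.3 CPM in day libraries. The groups did not overlap, and night library 3 was the highest. The difference was 0.99 ± 0.22 log2 (adjusted p = 0.144), and it passed the test with the covariate at 1.42 ± 0.18 log2 (adjusted p = 0.00588). Per1 had 111, 164, 117 and 166 CPM in night libraries, against 68.8, 64.3, 60.3 and 58.2 CPM in day libraries, a difference of 1.15 ± 0.30 log2 (adjusted p = 0.144). Per2 had 112, 183, 148 and 193 CPM in night libraries, against 44.0, 64.9, 73.3 and 54.0 CPM in day libraries, a difference of 1.43 ± 0.44 log2 (adjusted p = 0.144). Both Per genes were thus above the day range in each night library, night library 3 included. Per3, the third of the family, overlapped, with 49.3, 62.6, 50.0 and 56.3 CPM in night and 43.5, 75.7, 64.8 and 61.6 CPM in day libraries.

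Of the remaining repressors, Bhlhe41, which encodes DEC2, competes for E-boxes and had 7.42, 5.82, 2.82 and 5.34 CPM in night libraries, against 8.59, 11.1, 9.11 and 14.3 CPM in day libraries. It had a difference of -1.01 ± 0.32 log2 (adjusted p = 0.144). Its relative Bhlhe40 overlapped, with a difference of -0.41 ± 0.19 log2. Ciart, which binds the BMAL1 complex, had 5.70, 10.0, 4.95 and 6.95 CPM in night and 3.86, 13.5, 8.87 and 9.58 CPM in day libraries, and day library 1 was below every night library. Cry2 overlapped at 46.1 to 65.0 CPM in night and 42.2 to 64.6 CPM in day libraries. Casein kinase 1 marks PER for decay: Csnk1e was 26.4 to 36.1 CPM in night and 18.3 to 26.4 CPM in day libraries, and its 0.57 ± 0.18 log2 was 0.21 log2 with the covariate, while Csnk1d overlapped.

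The D-box regulators Dbp and Nfil3 differed in opposite directions. Dbp, an activator, had 18.3, 15.7, 18.9 and 16.2 CPM in night libraries, against 41.4, 79.4, 47.1 and 49.0 CPM in day libraries, a difference of -1.65 ± 0.27 log2 (adjusted p = 0.0756). Nfil3, the repressor of the same motif, had 22.5, 29.7, 25.6 and 30.5 CPM in night libraries, against 11.5, 10.2, 8.34 and 8.23 CPM in day libraries, a difference of 1.5 ± 0.26 log2 (adjusted p = 0.0887). Neither pair of groups came near to meeting, and the differences with the covariate were -1.53 and 1.48 log2 (adjusted p = 0.4 for each). Tef, at 183 to 210 CPM in night and 167 to 265 CPM in day libraries, and Hlf, at 49.3 to 71.8 CPM in night and 47.0 to 85.1 CPM in day libraries, overlapped. So did Wee1, a mitotic kinase, Nampt, which makes NAD, Usp2, a deubiquitinase, Tspan4 and Fbxl21, with differences of -0.37 to 0.07 log2.

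**Figure D3:**
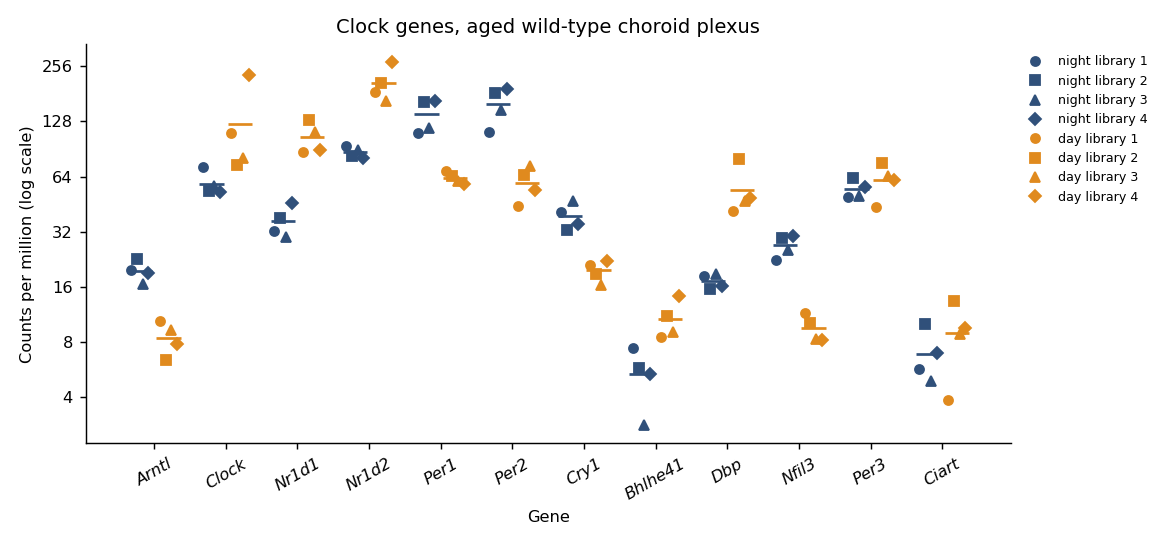
CPM (log scale) of 12 clock genes in the 4 night (blue) and 4 day (orange) libraries, with a line at each group mean. Night lies above day without overlap for Arntl, Per1, Per2, Cry1 and Nfil3 and below it for Clock, Nr1d1, Nr1d2, Bhlhe41 and Dbp, and the groups overlap for Per3 and Ciart.

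In the contrast of the 3 libraries with close brain marker scores, differences were -1.81 log2 for Nr1d1, -1.30 for Dbp, -1.04 for Nr1d2, 1.26 for Cry1, 1.26 for Per2, 1.30 for Nfil3, 0.79 for Per1 and 0.68 for Arntl. Since the groups do not overlap for these 8 genes, their signs here were fixed by the choice of genes, and only the sizes are given. That of Arntl was 1.20 log2 over the 8 libraries.

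The change in aged wild-type mice was tested against that in aged J20+ mice with an interaction term. Of 16065 genes, 0 (0%) differed at an adjusted p under 0.05 in edgeR, with 1992 (12.4%) at an unadjusted p under 0.05 and 9 called by DESeq2 and 5382 by limma-voom. Clock genes had night minus day values in aged wild-type and in J20+ mice of -1.51 ± 0.23 and -2.13 ± 0.24 log2 for Nr1d1, of -1.65 ± 0.27 and -1.69 ± 0.27 log2 for Dbp, and of 1.43 ± 0.44 and 1.61 ± 0.45 log2 for Per2. Others had opposite signs, with -1.08 ± 0.50 log2 in aged wild-type and 0.21 ± 0.49 log2 in J20+ mice for Clock (edgeR interaction, adjusted p = 0.441). Rorb, also a thalamus marker, had 2.81 ± 0.98 log2 in aged wild-type and -1.64 ± 0.96 log2 in J20+ mice (edgeR interaction, adjusted p = 0.359). For Tsc22d3 they were 1.33 ± 0.13 log2 in aged wild-type and 0.79 ± 0.13 log2 in J20+ mice (edgeR interaction, adjusted p = 0.359). For Necab2, a calcium-binding protein of neurons, they were 1.01 ± 0.17 log2 in aged wild-type and -0.20 ± 0.17 log2 in J20+ mice (edgeR interaction, adjusted p = 0.359). Brain marker scores averaged 5.36 ± 1.20 log2 CPM in aged wild-type night and 2.67 ± 1.49 log2 CPM in aged wild-type day libraries, against 2.46 ± 1.49 log2 CPM in J20+ night and 2.94 ± 1.77 log2 CPM in J20+ day libraries (SD, n = 4 each). With that score as a covariate, 432 genes (2.69%) had an unadjusted p under 0.05 for the difference between the genotypes, and 0 were called.

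Against young wild-type mice, 0 of 16590 genes (0%) differed in edgeR, with 2877 (17.3%) at an unadjusted p under 0.05 and 6 called by DESeq2 and 5943 by limma-voom. With the brain marker score as a covariate, 797 genes (4.8%) had an unadjusted p under 0.05 for this difference in edgeR, and 0 were called. The values that follow are without the covariate. Nr1d1 differed by -1.51 ± 0.23 log2 in aged and by -3.02 ± 0.27 log2 in young mice (edgeR interaction, adjusted p = 0.265). Arntl differed by 1.20 ± 0.37 log2 in aged and 2.50 ± 0.32 log2 in young mice (edgeR interaction, adjusted p = 0.265). Ciart had -0.38 ± 0.47 log2 in aged and -2.0 ± 0.45 log2 in young mice (edgeR interaction, adjusted p = 0.265), and Per3 had -0.17 ± 0.32 log2 in aged and -0.88 ± 0.27 log2 in young mice. Values were nearer for Dbp, at -1.65 log2 in aged and -1.68 log2 in young mice, for Nfil3, at 1.5 and 1.70 log2, and for Cry1, at 0.99 and 1.16 log2. Per1 and Per2 had 1.15 and 1.43 log2 in aged mice, against 0.16 and 0.35 log2 in young mice, which the test does not separate (edgeR interaction, adjusted p = 0.281 and 0.291). A miss of the threshold does not show that the ages act alike, and with age and batch joined a difference could not be assigned to age.

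**Figure D4:**
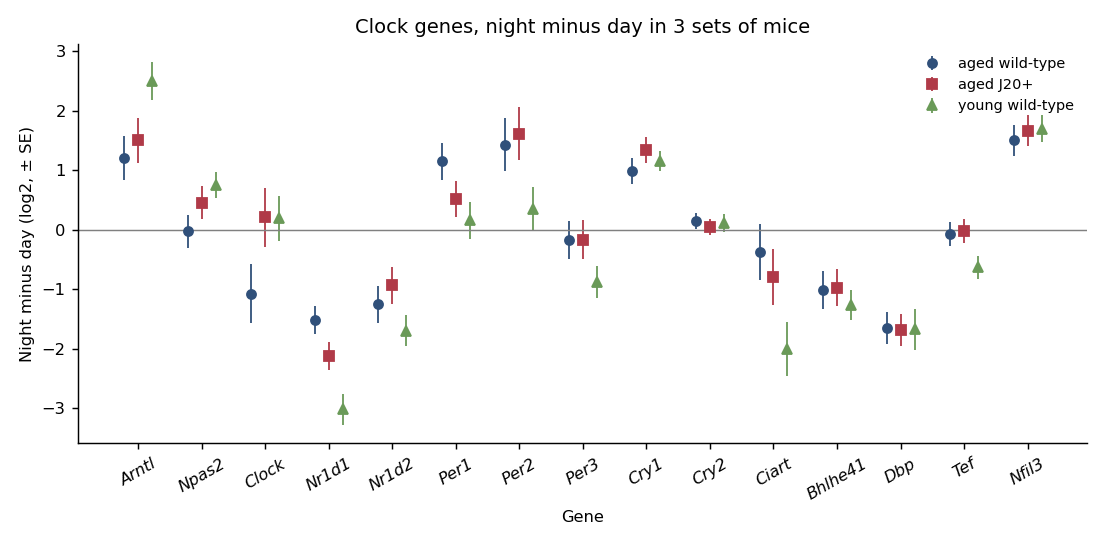
Night minus day in log2 with SE for 15 clock genes in aged wild-type (blue circles), aged J20+ (red squares) and young wild-type mice (green triangles). Nr1d1 lies at -1.51, -2.13 and -3.02, Ciart at -0.38, -0.79 and -2.0, and Per1 at 1.15, 0.52 and 0.16.

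Among glucocorticoid-responsive genes, Tsc22d3 was the one called by edgeR, with 17 of 34 at an unadjusted p under 0.05, 6 called by DESeq2 and 19 by limma-voom. The limma-voom share, 55.9% of the list, is near the 51.7% of all genes. Of the 34, 7 had every night library above every day library (10.8% of all genes did) and 3 below (15.2% did), with a median of 0.27 log2 and of 0.22 log2 with the brain marker covariate. Sult1a1, a sulfotransferase, had 33.4, 46.9, 68.1 and 55.7 CPM in night libraries, against 30, 28.7, 26.1 and 28.2 CPM in day libraries, a difference of 0.85 ± 0.17 log2 (adjusted p = 0.144). The span of Sult1a1 overlaps that of Slx1b by 1517 bases. Night library 3 was highest and night library 1 came near to the day range. Hif3a overlapped, with 3.31, 1.86, 0.469 and 2.22 CPM in night and 0, 0.334, 0.710 and 0.280 CPM in day libraries.

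Immediate early genes, which neurons and other cells induce within minutes of a stimulus, had a median of 0.98 log2 over 28 tested. Of these, 9 had night above day (10.8% of all genes did) and 0 below (15.2% of all genes did). None passed the edgeR test (15 at an unadjusted p under 0.05, 8 called by DESeq2, 14 by limma-voom). The limma-voom share, 50% of the list, is near the 51.7% of all genes. For Egr1 and Fos the 4 night libraries ran in the same order as for the striatal marker Penk. The order was another for Camk2a, Snap25 and Slc1a2, and a link of the order to brain tissue was not tested. Egr1 had 24.5, 13.2, 3.96 and 60.5 CPM in night libraries, against 5.88, 5.48, 6.15 and 4.98 CPM in day libraries, and Fos had 4.60, 3.60, 1.56 and 9.36 CPM in night and 1.73, 0.535, 1.36 and 0.504 CPM in day libraries. Night library 4 was the highest for both and night library 3 lay within or below the day range, so both overlapped. Nr4a2, an orphan nuclear receptor, had 3.49, 6.47, 4.48 and 6.75 CPM in night libraries, against 2.19, 2.81, 2.42 and 2.41 CPM in day libraries, without overlap. Atf3, a stress-induced factor, was likewise separate at 1.41 to 2.62 CPM in night and 0.535 to 1.01 CPM in day libraries. The median of the list was 0.46 log2 with the covariate and 0.03 log2 in the contrast of 3 libraries with close brain marker scores.

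In the aged wild-type libraries, genes of the epithelium's main tasks tended to be lower in share at night, together with its markers. The lists share members with the epithelial markers, among them Slc4a5, Prlr, Kl and Cldn2, so lists and markers are not independent. Of 38 ion and water transport genes 17 had every night library below every day library (15.2% of all genes did) and 1 above (10.8% did), and of 34 solute carriers 16 lay below and 2 above. The counts below and above were 13 and 1 of 34 for secreted proteins and hormone receptors, 7 and 2 of 28 for junction genes, and 16 and 1 of 34 for amyloid handling. None passed the edgeR test. In the same order of lists 18, 20, 13, 8 and 14 had an unadjusted p under 0.05, DESeq2 called 13, 7, 9, 5 and 4, and limma-voom 25, 25, 21, 18 and 25. Shares at an unadjusted p under 0.05 were 47.4%, 58.8%, 38.2%, 28.6% and 41.2%, against 31.1% of all genes. With DESeq2 they were 34.2%, 20.6%, 26.5%, 17.9% and 11.8%, against 8.65%, and with limma-voom 65.8%, 73.5%, 61.8%, 64.3% and 73.5%, against 51.7%. Junction genes thus lay under all genes in the first share, and amyloid handling was near all genes with DESeq2. Medians were -0.47, -0.46, -0.40, -0.33 and -0.31 log2 in that order, and -0.14, -0.30, -0.17, -0.09 and -0.22 log2 with the brain marker covariate. When libraries were scaled to the epithelial markers instead, all genes shifted to a median of 0.71 log2. The 5 medians were then 0.17, 0.20, 0.24, 0.35 and 0.34 log2, so that the sign of each list flips with the scaling. With this scaling they lay -0.54 to -0.36 log2 from the median of all genes. A change of scaling moves all genes by about the same amount, so it cannot test that distance.

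Prlr, the prolactin receptor, had 694, 543, 799 and 523 CPM in night libraries, against 1644, 1192, 1297 and 2996 CPM in day libraries, a difference of -1.48 ± 0.45 log2 (adjusted p = 0.144) that was -0.49 log2 with the covariate. Kl, klotho, which the plexus sheds into CSF, had 2057, 1445, 2618 and 1532 CPM in night libraries, against 4159, 3653, 3178 and 4655 CPM in day libraries. Slc4a5, a sodium bicarbonate cotransporter of CSF secretion, had 571, 529, 638 and 516 CPM in night libraries, against 983, 941, 835 and 1391 CPM in day libraries. Night library 3, with the lowest brain marker score of the night libraries, was the highest of them for each of the 3 and still below every day library. Atp2b3, a plasma membrane calcium pump, had 486, 529, 399 and 453 CPM in night libraries, against 1091, 880, 856 and 2694 CPM in day libraries, and Slc23a2, the vitamin C transporter, 352, 315, 269 and 237 CPM in night and 739, 607, 536 and 1458 CPM in day libraries. Day library 4 was highest for each of these 5. Night minus day for Prlr, Kl, Slc4a5, Atp2b3 and Slc23a2 was -1.48, -1.03, -0.88, -1.56 and -1.51 log2 in aged wild-type mice. In J20+ mice it was -0.16, 0.01, -0.01, -0.04 and -0.12 log2, and in young mice -0.24, -0.01, -0.19, 0.07 and -0.14 log2. The edgeR interaction called none of them (adjusted p = 0.359 to 0.405 against J20+ and 0.265 to 0.271 against young mice).

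Further genes of these lists were lower in every night library, Cldn10 excepted. Slc12a7, a potassium chloride cotransporter, was at 70.2 to 92.0 CPM in night and 112 to 148 CPM in day libraries, and Atp2a3, a calcium pump of the endoplasmic reticulum, at 36.6 to 53.5 CPM in night and 62.6 to 112 CPM in day libraries. The drug exporters Abcc1 and Abcc4 were at 87.0 to 97.7 and 49.2 to 83.8 CPM in night and at 131 to 202 and 101 to 212 CPM in day libraries. The growth factors Igf2 and Tgfb2 were at 1505 to 2285 and 115 to 225 CPM in night and at 3105 to 4374 and 314 to 420 CPM in day libraries. At the junctions, Cldn2, a claudin of leaky epithelia, was at 242 to 470 CPM in night and 579 to 1103 CPM in day libraries, and Cgnl1, a junction scaffold, at 332 to 584 CPM in night and 757 to 1418 CPM in day libraries. Cdh1, E-cadherin, was at 1.74 to 4.48 CPM in night and 5.86 to 25.6 CPM in day libraries. Cldn10 overlapped, at 3.02 to 9.38 CPM in night and 1.57 to 3.61 CPM in day libraries. For amyloid handling, Ace, a peptidase, was at 638 to 1091 CPM in night and 1443 to 3519 CPM in day libraries. Lrp1, a clearance receptor, was at 422 to 437 CPM in night and 557 to 954 CPM in day libraries, and Aph1a, a gamma-secretase subunit, at 34.1 to 60.0 CPM in night and 68.1 to 89.4 CPM in day libraries.

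Slc22a8 was higher at night. It encodes the organic anion transporter OAT3, which clears metabolites and drugs from CSF, and had 272, 273, 329 and 276 CPM in night libraries, against 159, 160, 172 and 147 CPM in day libraries. The lowest night library was well above the highest day library, and night library 3, which has the highest epithelial marker mean of the night libraries, was the highest. The difference was 0.85 ± 0.17 log2 (adjusted p = 0.144), 0.75 log2 with the covariate, 0.92 log2 in the contrast of 3 libraries, 0.97 ± 0.17 log2 in J20+ and 0.70 ± 0.18 log2 in young mice.

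**Figure D5:**
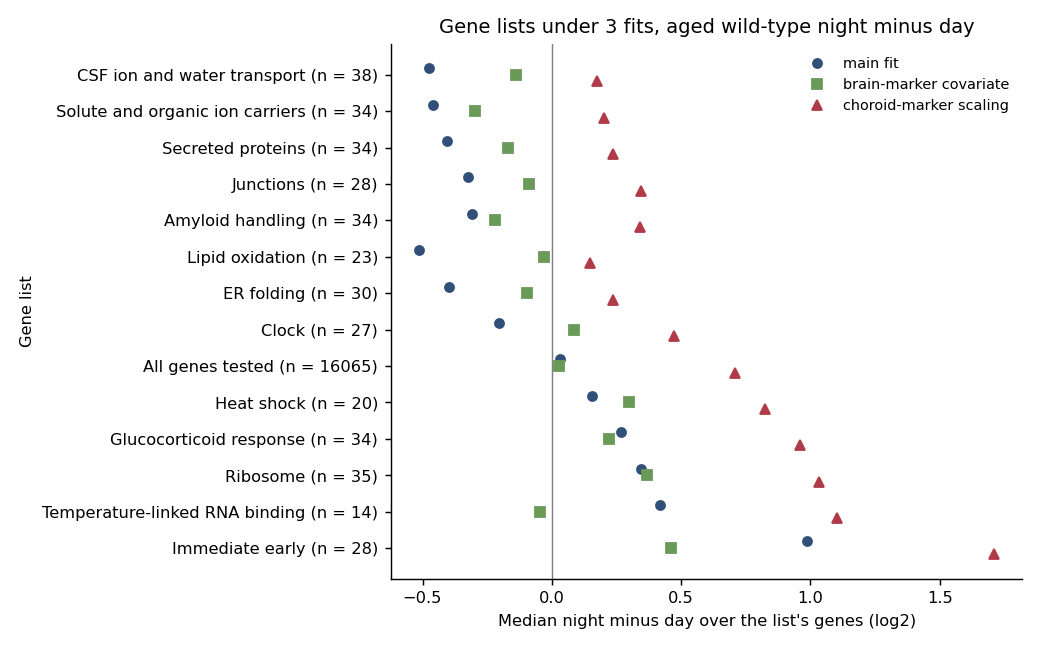
Median night minus day (log2) over the genes of 13 lists and over all 16065 genes in the fit with TMM scaling (blue circles), with the brain marker covariate (green squares) and with scaling to choroid epithelium markers (red triangles). Transport, secretion and junction lists lie left of all genes in each fit, and scaling to epithelial markers moves all genes to 0.71.

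Of 23 genes of fatty acid oxidation, 11 had night below day (15.2% of all genes did) and 0 above (10.8% of all genes did). Their median was -0.51 log2, and -0.03 log2 with the covariate, and 0 passed the edgeR test (13 at an unadjusted p under 0.05, 6 called by DESeq2, 16 by limma-voom). Cpt1a, which gates fatty acid entry to mitochondria, was at 208 to 346 CPM in night and 472 to 661 CPM in day libraries, and Hadha, of the trifunctional enzyme, at 136 to 206 CPM in night and 284 to 455 CPM in day libraries. Etfdh, which passes electrons of fatty acid oxidation to ubiquinone, was at 68.2 to 117 CPM in night and 157 to 230 CPM in day libraries, and the dehydrogenase Acadm at 129 to 184 CPM in night and 189 to 244 CPM in day libraries. Of 30 endoplasmic reticulum folding genes 9 lay below (15.2% of all genes did) and 2 above (10.8% of all genes did). Their median was -0.40 log2, and -0.10 log2 with the covariate, and 0 passed (13 at an unadjusted p under 0.05, 1 called by DESeq2, 22 by limma-voom). Those above were Creld2, a secreted chaperone, at 71.5, 73.1, 86.8 and 90.1 CPM in night and 60.1, 46.5, 56.8 and 34.8 CPM in day libraries, and Syvn1, the ligase HRD1, at 112 to 157 CPM in night and 69.1 to 100 CPM in day libraries. The sensor kinase Ern1 was at 4.38 to 8.52 CPM in night and 11.2 to 45.8 CPM in day libraries, and the co-chaperone Dnajc3 at 129 to 267 CPM in night and 356 to 741 CPM in day libraries. Night minus day in aged wild-type, J20+ and young mice was -1.67, -0.07 and 0.25 log2 for Ern1 and -1.34, -0.01 and 0.11 log2 for Dnajc3. For Creld2 it was 0.70, 1.11 and 0.94 log2, and for Syvn1 0.67, 0.88 and 0.72 log2. The DESeq2 share of the folding list, 3.33%, lies under the 8.65% of all genes.

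Of 20 cytosolic heat shock genes, 7 had night above day (10.8% of all genes did) and 2 below, at a median of 0.16 log2 and of 0.30 log2 with the covariate. Dnajb1, an HSP40 co-chaperone, had 110, 101, 120 and 110 CPM in night libraries, against 101, 83.7, 67.0 and 82.3 CPM in day libraries, and Chordc1, a partner of HSP90, 104, 105, 106 and 95.0 CPM in night and 88.9, 77.1, 73.4 and 70.6 CPM in day libraries. The inducible pair Hspa1a and Hspa1b was low, at 6.05 to 6.65 and 2.29 to 5.58 CPM in night and at 1.46 to 3.17 and 0.336 to 1.04 CPM in day libraries. These near-identical copies share reads, so their separate values are uncertain. None of the 20 passed the edgeR test (9 at an unadjusted p under 0.05, 3 called by DESeq2, 7 by limma-voom). The limma-voom share, 35% of the list, lies under the 51.7% of all genes, and the 2 below under the 15.2%.

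Of 14 RNA-binding and splicing genes tied to body temperature, 5 had night above day (10.8% of all genes did) and 0 below (15.2% of all genes did). Their median was 0.42 log2, and -0.05 log2 with the covariate, and 0 passed the edgeR test (5 at an unadjusted p under 0.05, 1 called by DESeq2, 8 by limma-voom). These last counts are 35.7%, 7.14% and 57.1% of the list, each near the share of all genes. Cirbp, the cold-inducible RNA-binding protein, had 48.2, 56.2, 43.5 and 52.6 CPM in night libraries, against 55.8, 92.3, 82.6 and 69.6 CPM in day libraries, overlapping in a single pair, with a difference of -0.58 ± 0.20 log2 (adjusted p = 0.144). Clk1, a kinase of splicing factors, had 244, 327, 280 and 300 CPM in night libraries, against 130, 147, 177 and 78.1 CPM in day libraries, and its 1.11 log2 was 0.25 log2 with the covariate. The splicing factors Tra2a and Srsf7 were at 136 to 190 and 155 to 204 CPM in night and at 61.1 to 107 and 90.3 to 122 CPM in day libraries.

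Of 35 ribosomal protein genes, 7 had night above day (10.8% of all genes did) and 0 below (15.2% of all genes did). Their median was 0.35 log2, and 0.37 log2 with the covariate. Rps21 overlapped at 107 to 181 CPM in night and 90.3 to 108 CPM in day libraries. Rpl37 was at 103 to 177 CPM in night and 75.4 to 102 CPM in day libraries, and Rps27 at 104 to 179 CPM in night and 79.6 to 102 CPM in day libraries. None passed the edgeR test (20 at an unadjusted p under 0.05, 7 called by DESeq2, 21 by limma-voom), and many pseudogene copies make single ribosomal genes uncertain.

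The trend of log2 counts with the GC content of transcripts also differed between the groups. It was 0.176, 0.319, 0.144 and 0.400 log2 per 10 points of GC in night libraries, against -0.112, -0.001, 0.054 and -0.295 in day libraries, without overlap. After a correction for GC content the differences were 1.40 log2 for Tsc22d3, -1.74 log2 for Nr1d1, -1.94 log2 for Dbp, 1.33 log2 for Nfil3 and 0.57 log2 for Necab2, and Nr1d1 and Dbp passed the test (adjusted p = 0.000172 and 0.0475). The median over ion and water transport genes was -0.45 log2 with the correction and -0.47 log2 without it, and that over immediate early genes 0.69 and 0.98 log2. Of the differences from J20+ and from young mice 0 were called with the correction, and 2059 and 3408 genes had an unadjusted p under 0.05.

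Beyond the lists, the genes with the smallest p that separated the groups included neuronal genes and others. Necab2 had 29.1, 34.8, 23.9 and 38.8 CPM in night libraries, against 16.9, 14.5, 15.7 and 15.6 CPM in day libraries. Rab3a, a GTPase of synaptic vesicles, had 62.8, 66.6, 43.2 and 65.9 CPM in night libraries, against 33.7, 33.0, 29.7 and 29.3 CPM in day libraries, and Ywhah, a 14-3-3 protein, 47.9, 54.0, 37.7 and 44.1 CPM in night and 28.4, 24.3, 24.1 and 21.1 CPM in day libraries. Night library 3 was the lowest night library for each of the 3, and in the contrast of 3 libraries their differences were 0.48, 0.38 and 0.46 log2, against 1.01, 0.92 and 0.91 log2 over all 8. The kinase Sbk1 was at 13.9 to 26.8 CPM in night and 10.2 to 11.9 CPM in day libraries and Tafa5, a secreted brain protein, at 38.6 to 44.0 CPM in night and 27.7 to 31.2 CPM in day libraries.

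The next 5 genes were picked by a small p in the fit with the brain marker covariate. That choice favours genes that are not low in night library 3, and none of them was lowest there. Eif1b, a translation initiation factor, had 52.5, 58.7, 79.8 and 67.1 CPM in night libraries, against 46.8, 44.2, 38.6 and 39.2 CPM in day libraries, and Osgin1, an oxidative stress gene, 16.2, 15.2, 20 and 16.5 CPM in night and 11, 11.7, 9.29 and 8.96 CPM in day libraries. Tomm5, of the mitochondrial import pore, was at 20.4 to 28 CPM in night and 16.2 to 19.8 CPM in day libraries, Nat8f5, of an acetyltransferase family, at 7.85 to 11.7 CPM in night and 5.38 to 7.79 CPM in day libraries, and Lurap1l at 12.1 to 15.1 CPM in night and 8.24 to 10.9 CPM in day libraries. With the covariate these 5 had differences of 0.61 to 0.99 log2 (adjusted p = 0.4 each).

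Lower at night without overlap were Por, the reductase that supplies electrons to cytochromes P450, with 94.0, 74.3, 99.5 and 89.9 CPM in night libraries and 175, 160, 142 and 174 CPM in day libraries, and Cyp2s1, a P450, with 6.19, 6.06, 5.16 and 6.34 CPM in night and 11.5, 12.1, 10.1 and 13.2 CPM in day libraries. Ngfr, the low-affinity neurotrophin receptor, had 13.9, 9.71, 13.6 and 10.9 CPM in night libraries, against 32.5, 25.6, 24.4 and 26 CPM in day libraries, a difference of -1.17 ± 0.25 log2 in aged wild-type, -1.16 ± 0.25 log2 in J20+ and 0.31 ± 0.28 log2 in young mice (edgeR interaction with young, adjusted p = 0.265). Tns4, a focal adhesion protein, had 11.8, 15.2, 15.8 and 8.96 CPM in night libraries, against 29.7, 31.2, 28.7 and 41.3 CPM in day libraries. Espl1, separase, was at 11.6 to 14.8 CPM in night and 21.4 to 29.4 CPM in day libraries, Mppe1, a phosphoesterase, at 13.7 to 17.6 CPM in night and 25 to 31.9 CPM in day libraries, and Bmf, a proapoptotic protein, at 12.4 to 15.9 CPM in night and 19.9 to 25.5 CPM in day libraries. Slc35g1 was at 12.4 to 18.3 CPM in night and 24.5 to 36.5 CPM in day libraries, Hk2, a hexokinase, at 2.76 to 3.47 CPM in night and 3.98 to 5.48 CPM in day libraries, and Alx4, a homeobox factor, at 4.90 to 6.30 CPM in night and 7.81 to 15.8 CPM in day libraries. Each of these 10 had an adjusted p of 0.144, and their differences were -0.44 to -1.25 log2 with the covariate.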

How the data were processed

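Poly(A) RNA of 28 choroid plexus samples was sequenced from stranded TruSeq libraries on a NovaSeq, per the labels' protocols. The authors deposited unnormalized counts for each Entrez gene, made with HISAT2 2.2.1 and featureCounts 2.0.1 on mm10, per the submitters' processing notes. No source used here gives the strand setting, multi-mapping treatment or annotation. Of 27179 identifiers, 25275 matched RefSeq symbols (GRCm38.p6).

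The 16 aged libraries were filtered (filterByExpr), scaled by TMM and fitted with edgeR 4.0.16 (robust quasi-likelihood, 1 coefficient per group, Benjamini-Hochberg, threshold 0.05, R 4.3.3). The comparison with young mice used all 28 libraries. SE is the log2 fold change over the square root of F, and marker scores use log2 CPM with a prior count of 2. The fitting steps were tested on simulated counts with known changes. These counts held no shared difference in brain tissue between libraries, so they cannot test how such a difference affects the calls.

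Alternatives were other scalings (RLE, upper-quartile, choroid markers), DESeq2 1.42.0, limma-voom 3.58.1, other filters, marker covariates, a GC correction (loess span 0.3), the compared groups alone, and each library left out.

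The comparison and its 44 gene lists were chosen with earlier results of these data known. Genes named in the text are the called genes, up to 10 in each direction with the smallest p among non-overlapping genes at 1 log2 CPM or more on average (in the fit with and without the brain marker covariate), clock members, the 4 members of a described list with the smallest p, and high markers. A few genes picked in this way are not reported here, but they stay in the counts over all genes.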

Additional observations from a re-analysis of the deposited data

Results flagged for a closer look

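In 184 groups of 4 values (92 named genes, night and day), 16 had a library that lay beyond Dixon's critical value for a group of this size, by the gap to its nearest neighbour. Chance alone flags about 1 in 20 groups.

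At night, library 3, the night library with the fewest brain markers, stood apart for 6 genes. It was low for Rab3a at 43.2 CPM (others 62.8 to 66.6), for Cry2 at 46.1 CPM (others 61.8 to 65.0) and for Csnk1e at 26.4 CPM (others 35.2 to 36.1). It was high for Slc22a8 at 329 CPM (others 272 to 276), for Tspan4 at 66.8 CPM (others 39.1 to 43.5) and for Acadm at 184 CPM (others 129 to 135).

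By day, library 4, with the lowest brain marker score and the steepest negative GC trend, stood apart for 8 genes. It was high for Rora at 25.4 CPM (others 3.08 to 5.21), Atp2b3 at 2694 CPM (others 856 to 1091), Ern1 at 45.8 CPM (others 11.2 to 11.9) and Cdh1 at 25.6 CPM (others 5.86 to 8.82). It was also high for Abcc1 at 202 CPM (others 131 to 135), Mppe1 at 31.9 CPM (others 25 to 26) and Tspan4 at 60.7 CPM (others 52.2 to 52.3), and low for Srsf7 at 90.3 CPM (others 118 to 122). Day library 1 was low for Npas2 at 17.2 CPM (others 21.8 to 22.2) and high for Tafa5 at 31.2 CPM (others 27.7 to 28.2).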

How the results depend on the processing

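Counts of called genes varied widely between the alternatives. Against 2 with TMM scaling on 16 libraries, calls numbered 3382 with choroid marker scaling (3364 higher, 18 lower), 1390 with DESeq2 (657 higher, 733 lower), 8312 with limma-voom (4463 higher, 3849 lower), 5 with the brain marker covariate, 5 with the GC correction, 4033 in the compared groups alone and 2 to 100 with 1 library left out, the 100 without night library 3. Of the alternatives added after seeing the data, night library 3 against day libraries 1 and 3 gave 0, the fit without the J20+ pair named above (day library 1, night library 2) gave 7155, and the compared groups with the brain marker covariate gave 1. The cause was not tested. Tsc22d3 kept its direction in all 22 alternatives and its call in all but the first and the last of these added 3. Genes at an unadjusted p under 0.05 numbered 5002, and 8807 with choroid marker scaling, 9363 with limma-voom, 960 with the brain marker covariate, 2239 to 5654 with 1 library left out (2239 without day library 4), and 528, 8690 and 1133 in the 3 added ones. Genes without overlap numbered 7304 (night above) and 180 (night below) with choroid marker scaling. The difference from J20+ mice was called for 9 genes with DESeq2, 5382 with limma-voom and 0 with any 1 library left out. The difference from young mice was called for 6 with DESeq2, 5943 with limma-voom, 0 to 2 with 1 library left out (2 without night library 3) and 3022 without the J20+ pair.

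Signs turned for the genes below, none of them called in the fit on 16 libraries (values in log2, night minus day). Among them are large differences of that fit, those of Rora (-1.80), Rorb (2.81), Egr1 (2.2) and Fos (2.2). With choroid marker scaling these were Hk2 (0.023), Npas2 (0.67), Per3 (0.52), Ciart (0.34), Bhlhe40 (0.28), Csnk1d (0.47), Fbxl21 (0.38), Tef (0.63), Hlf (0.60), Wee1 (0.44), Nampt (0.29), Tspan4 (0.43), Slc12a7 (0.028), Abcc1 (0.013), Lrp1 (0.044), Cirbp (0.10) and Acadm (0.006). With the brain marker covariate they were Npas2 (0.38), Rora (0.55), Csnk1d (0.085), Fbxl21 (0.15), Tef (0.048), Hlf (0.29), Wee1 (0.54), Nampt (0.064) and Tspan4 (0.081), and in the compared groups with it Npas2 (0.011), Fbxl21 (0.12), Tef (0.20), Hlf (0.11), Wee1 (0.27), Nampt (0.026) and Tspan4 (0.16). Night library 3 against day libraries 1 and 3 turned Rorb (-0.69), Cry2 (-0.14), Wee1 (0.11), Tspan4 (0.28), Egr1 (-0.67) and Fos (-0.050). Limma-voom turned Npas2 (0.12), Per3 (0.011), Ciart (0.14) and Tef (0.094), upper-quartile scaling Npas2 (0.092), Tef (0.056) and Hlf (0.027), the stricter filter Npas2 (0.061) and Tef (0.024), and the GC correction Usp2 (-0.10). With 1 library left out Usp2 ran from -0.034 to 0.14, Tef ran from -0.18 to 0.034, Hlf ran from -0.24 to 0.030 and Npas2 ran from -0.13 to 0.014. No paired analysis was possible because replicate numbers follow the order of the records and the labels pair no animals. Depth limits genes of a few CPM, and with 4 mice a group the spread is estimated loosely.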
